A study of Mus musculus with 28 samples.

Results

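The Ehmt1/Zic2 double knockout response is the change in RNA levels between embryonic stem cells (ESCs) held in 2i and the same cells 32 h after 2i was withdrawn, in cells carrying knockout alleles of both Ehmt1 and Zic2. It was read from the count columns of 2 double knockout clones (KO1 and KO2, here clone 1 and clone 2), each sequenced once as ESCs and once at 32 h and compared within the clone. These are 4 of the 28 libraries of the series. All of the series' cells derive from female RGd2 mouse ESCs, which carry a Rex1:GFPd2 reporter with blasticidin resistance and were grown on gelatin in N2B27 medium. The inhibitor pair called 2i joins CHIR99021, which blocks Gsk3 and so keeps Wnt signalling high, with PD0325901, which blocks Mek and so keeps Erk signalling low. The libraries set beside the double knockout are wild type (WT), Ehmt1 knockout (Ehmt1 KO) and Zic2 knockout (Zic2 KO), each with 2 lines at both stages, all made from polyadenylated RNA with the TruSeq mRNA kit. A fit of these 16 libraries, with the line as a block and a stage effect per genotype, gave every test. The labels do not say which part of either gene was altered, and each knockout rests on 2 clones. Nothing shows that the libraries of a genotype came from more than these lines. With the line as a block, p-values measure how the stage effect varied between lines of the same genotype, pooled over the genotypes.

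In 2i, mouse ESCs rest in a naive state that resembles the epiblast before implantation, and a network of transcription factors including Esrrb, Nanog, Klf4 and Tfcp2l1 holds them there. Once the inhibitors are taken away this network is shut down and a formative programme led by Otx2 and Pou3f1 (Oct6) is switched on. Ehmt1 (GLP) and its partner Ehmt2 (G9a) place dimethylation on lysine 9 of histone H3, a repressive mark, while Zic2 is a zinc finger transcription factor expressed in the early epiblast. Zfp281, another zinc finger factor studied in the same series, is required for ESCs to leave the naive state.

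The 4 double knockout libraries held 20044955 to 28777604 counts, against 19013882 to 28777604 over all 16. Levels are given below as CPM, counts scaled to a common library size with edgeR's library factors. Differences are log2 fold changes of 32 h against ESC with an approximate standard error (SE). The SE was back-calculated from the fold change and the F statistic of its test, and is least sure where a group has few reads. A gene was called where edgeR's quasi-likelihood test gave a Benjamini-Hochberg adjusted p under 0.05 over the 15667 genes tested. The cells fitted their label: 8 markers of pluripotent cells (Pou5f1, Sox2, Sall4, Utf1, L1td1, Dppa4, Trim28 and Lin28a) were at 46.6 CPM or more in every double knockout library. Other pluripotency genes were lower there, such as Lin28b at 25.5 to 41.7 CPM and Foxd3 at 3.58 to 24.7 CPM. Some chromosomes stood apart by clone, at both stages. Genes of chromosome 16 had a median log2 level 0.43 (ESC) and 0.46 (32 h) above WT in clone 2, and -0.02 and -0.03 from WT in clone 1. Genes of chromosome 11 were above WT in both clones, by medians of 0.33 to 0.43, and likewise in Ehmt1 KO line 1 (0.39 and 0.42) but not in Ehmt1 KO line 2 (-0.07 and -0.01). The median response of chromosome 11 was 0.02 in clone 1 and -0.03 in clone 2. That of chromosome 16 was -0.11 in clone 1 and -0.09 in clone 2, against -0.13 to 0.07 and -0.06 to 0.00 over the 19 other chromosomes, so that clone 2 lay outside their range. Of 339 genes on chromosome 16, 26 were called higher and 70 lower, against 1260 and 1707 of 10403 elsewhere. Their part in the results was not tested.

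**Figure D1:**
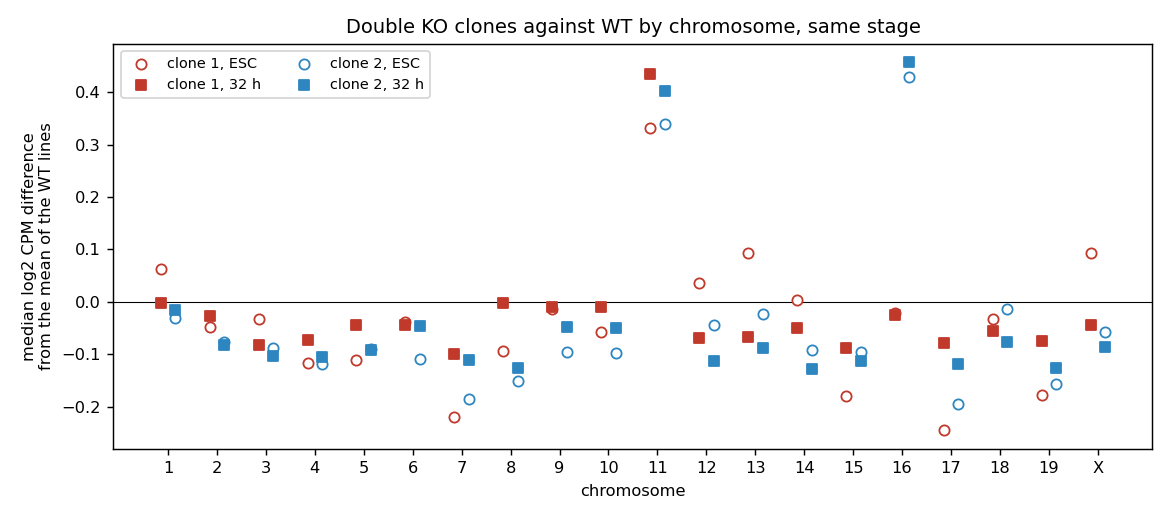
Median difference in log2 CPM between each double knockout clone and the mean of the WT lines at the same stage, by chromosome (x axis). Red marks clone 1 and blue clone 2, open circles ESC and filled squares 32 h; chromosome 11 lies above 0.3 in both clones and chromosome 16 above 0.4 in clone 2 only.

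The targeted genes were checked first. Ehmt1 was at 25.4 and 25.8 CPM in the double knockout ESCs and at 30.5 and 28.8 CPM at 32 h, in clone 1 and clone 2 in turn. In WT it was at 80.3 and 93.4 CPM in ESCs and at 149 and 154 CPM at 32 h. All 4 double knockout values lay below every WT value. Ehmt1 did not pass the test within the double knockout (log2 fold change 0.21, SE 0.10, adjusted p 0.14), whereas it rose by 0.80 in WT, and that difference of responses was called at -0.59 (adjusted p 0.0095). The call was lost without double knockout clone 2 (adjusted p 0.060), without WT line 1 (0.053) and without the block (0.16). Zic2 RNA was still present, at 141 and 66.5 CPM in ESCs and 208 and 77.3 CPM at 32 h. The WT libraries ranged from 105 to 146 CPM, so the RNA level of Zic2 does not separate the genotypes. Zic2 rose by 0.39 (SE 0.10, adjusted p 0.0081) in the double knockout, a call lost without clone 1 (0.19, adjusted p 0.35) and without the block (adjusted p 0.49). Ehmt2 (0.18, adjusted p 0.14) and Zfp281 (0.04, adjusted p 0.81) were not called.

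The double knockout changed its RNA profile broadly on leaving 2i. Of the 15667 genes, 2146 rose and 2164 fell, together 27.5% (13.7% higher and 13.8% lower). Under the same test 47.1% were called in WT (24.2% higher and 22.9% lower), 42.5% in Zic2 KO and 35.2% in Ehmt1 KO. Over all genes the median absolute log2 fold change was 0.27 in the double knockout, 0.32 in Ehmt1 KO, 0.38 in Zic2 KO and 0.42 in WT. Of the 15667 genes, 11417 moved the same way in both clones. Among the 4310 called it was 4309, which the call itself favours because the same 2 clones gave it. In 335 (7.77%) of the called genes the clones' own responses differed by more than 1 on the log2 scale. Without the block 2251 genes were called, without clone 1 2070, and without clone 2 3265.

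Part of the WT response was kept at a smaller size. The 3791 genes that rose in WT had a median log2 fold change of 0.36 in the double knockout, 0.51 in Ehmt1 KO and 0.82 in Zic2 KO, beside 0.98 in WT itself, where the choice of genes raises the value. Of these, 1446 also rose in the double knockout, which is 38.1% of the WT list and 67.4% of the double knockout list, while 67 fell there. The 3587 genes that fell in WT had medians of -0.31, -0.45 and -0.60 in the double knockout, Ehmt1 KO and Zic2 KO, beside -0.74 in WT, and 1464 of them fell in the double knockout (40.8% and 67.7% of the lists) while 80 rose. Across the 15667 genes the double knockout response had a Pearson r of 0.84 with that of Ehmt1 KO, 0.67 with Zic2 KO and 0.63 with WT, pairs of responses with no library in common. These values describe genes, which are not independent replicates.

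**Figure D2:**
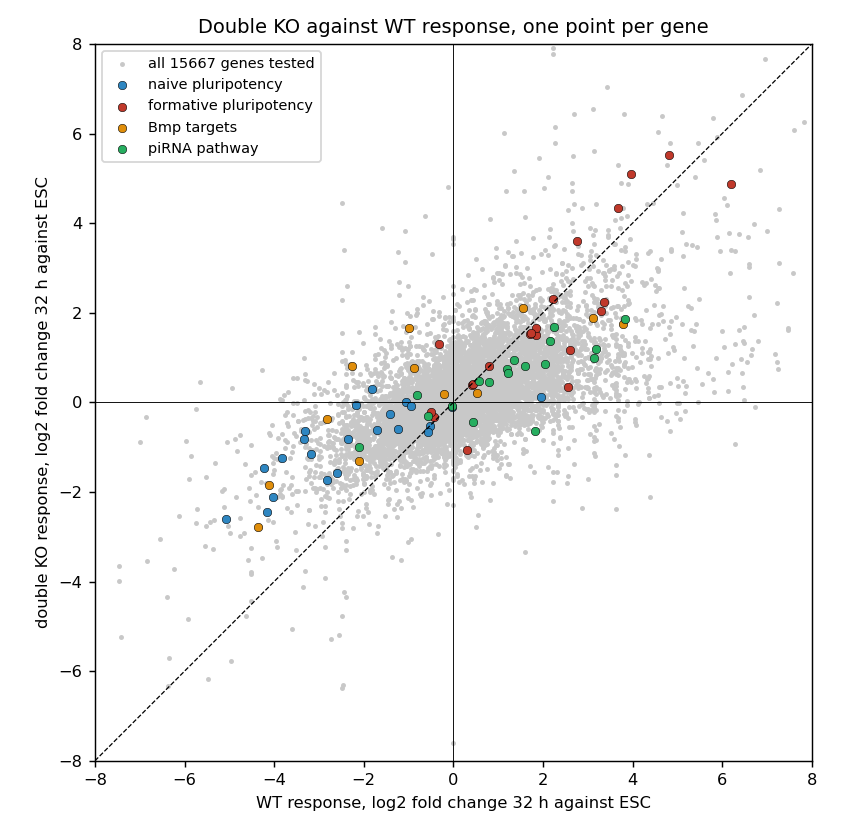
Log2 fold change of 32 h against ESC in WT (x axis) and in the double knockout (y axis), 1 point per gene, with the naive, formative, Bmp target and piRNA pathway lists coloured; 8 genes lie outside the axes and the dashed line marks equal responses. Most naive genes lie above the dashed line on the left, as in Esrrb at -1.46 against -4.22, and 8.60% of all genes were called above it.

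The genes with the largest increases were mostly silent in 2i. Csn3, which encodes kappa-casein, had 1 read in the 2 ESC libraries together and 336 at 32 h, a scaled ratio of 249 with an exact counting interval of 44.5 to 9881. Car4, a membrane carbonic anhydrase, was at 0.0917 and 0.681 CPM in ESCs and at 6.84 and 28.4 CPM at 32 h (log2 fold change 5.52, SE 0.26, adjusted p 8.2e-09). Fgf5, the growth factor that marks the early post-implantation epiblast, was at 0.0459 and 0.876 CPM and then at 5.26 and 25.7 CPM (5.11, SE 0.29, adjusted p 4.6e-08). The stages do not overlap in these genes because only such genes were eligible to be named here. Also raised were Btbd17 (6.25), the forkhead factor Foxd4 (5.29), the proton channel Otop1 (5.03), Enpp2, which makes lysophosphatidic acid (4.88), the GDNF receptor Gfra1 (4.41) and Fgf15 (4.34). The interferon-inducible GTPase Gbp2 (5.45) and the neuroendocrine factor Insm1 (5.02) had no read in 1 ESC library each, and their fitted values were 10.34 without clone 1 and 9.47 without clone 2. The response of Otop1 exceeded that of WT by 2.91 on the log2 scale (adjusted p 0.0058; 0.064 without clone 1).

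Among the decreases, the homeobox gene Nkx1-2 was at 24.9 and 26.1 CPM in ESCs and at 0.371 and 0.255 CPM at 32 h (log2 fold change -6.31, SE 0.23, adjusted p 8.3e-10). As with the increases, only genes whose stages do not overlap were eligible to be named here. The fall of Nkx1-2 exceeded that of WT by 3.85 on the log2 scale (difference -3.85, adjusted p 8.0e-06). WT went from 36.4 and 53.7 CPM to 6.36 and 10.04 CPM. In Ehmt1 KO Nkx1-2 fell by 5.05, and the difference from it was not called in edgeR's test (-1.26, adjusted p 0.27). The peptidoglycan-binding protein gene Pglyrp1 fell from 14.6 and 25.3 CPM to 0.405 and 0.365 CPM (-5.64, SE 0.25). The channel gene Trpm1 fell from 43.0 and 60.2 CPM to 1.42 and 2.19 CPM (-4.84, SE 0.16, adjusted p 4.4e-10). Ccbe1 (-6.18), the serotonin receptor Htr5a (-6.33), Cyp2c70 (-5.20), the urate oxidase Uox (-4.43) and the cyclic nucleotide-gated channel subunit Cnga4 (-4.35) fell as well. Dnase2b, a lysosomal nuclease, had 328 reads in the ESC libraries and 2 at 32 h, a scaled ratio of 0.00453 with a counting interval of 0.000546 to 0.0165, and was not called by DESeq2 (adjusted p 0.40).

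Naive genes fell less than in WT. Of 22 naive pluripotency genes 15 fell and 0 rose (10 and 1 without clone 1), with a median log2 fold change of -0.65 against -0.0025 over all genes tested; in WT 19 fell, with a median of -2.27. The difference of responses from WT was called higher for 18 of the 22 and lower for 1, the homeobox gene Gbx2, against 16.7% of all genes called in either direction (8.60% higher and 8.07% lower). Gbx2 was at 14.6 and 11.8 CPM and then 8.97 and 21.9 CPM, and its difference of -1.83 (adjusted p 0.032) was lost without double knockout clone 1 (0.050), WT line 1 (0.11), WT line 2 (0.12), the block (0.14) or the filter on low counts (0.15), and in a fit of these groups alone (0.061). Bulk libraries cannot tell fewer cells with a transcript from less transcript per cell.

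Esrrb, an orphan nuclear receptor of the network, was at 597 and 671 CPM in double knockout ESCs and at 215 and 246 CPM at 32 h, against 788 and 757 CPM falling to 40.6 and 42.4 CPM in WT. The 32 h level therefore stayed above that of both WT lines while the ESC level lay below both. Its log2 fold change was -1.46 (SE 0.11, adjusted p 6.0e-07), smaller than that of WT by 2.76 (adjusted p 7.6e-07). Klf4, a Krüppel-like factor, went from 39.5 and 36.6 CPM to 23.0 and 25.7 CPM (-0.65, SE 0.13, adjusted p 0.0018), beside 27.9 and 26.0 CPM to 2.37 and 3.03 CPM in WT. Both double knockout clones ended above both WT lines in either gene. Nanog, the homeobox factor, went from 811 and 749 CPM to 347 and 359 CPM (-1.14, SE 0.15, adjusted p 0.00018), beside 67.7 and 76.8 CPM in WT at 32 h.

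Zfp42 (Rex1), the gene whose promoter drives the reporter in these cells, was at 346 and 372 CPM in ESCs and at 364 and 324 CPM at 32 h. The stages overlapped and the gene was not called (-0.06, SE 0.13, adjusted p 0.74), whereas WT went from 326 and 329 CPM to 69.8 and 74.7 CPM. The difference from WT was 2.12 (adjusted p 1.6e-05). Nr0b1 (Dax1, 0.29, adjusted p 0.19) and Klf5 (-0.26, adjusted p 0.13) were also not called in the double knockout, against -1.81 and -1.41 in WT. Larger decreases belonged to the T-box factor Tbx3 (-2.61), the grainyhead-family factor Tfcp2l1 (-2.44), the adhesion molecule Jam2 (-2.11), the nuclear receptor Nr5a2 (-1.74), the threonine dehydrogenase Tdh (-1.57) and Prdm14, a regulator of naive and germ cell identity (-1.25). Each of these 6 was called and fell in both clones. Differences from WT were 2.45 for Tbx3, 1.72 for Tfcp2l1 and 2.57 for Prdm14, all called.

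**Figure D3:**
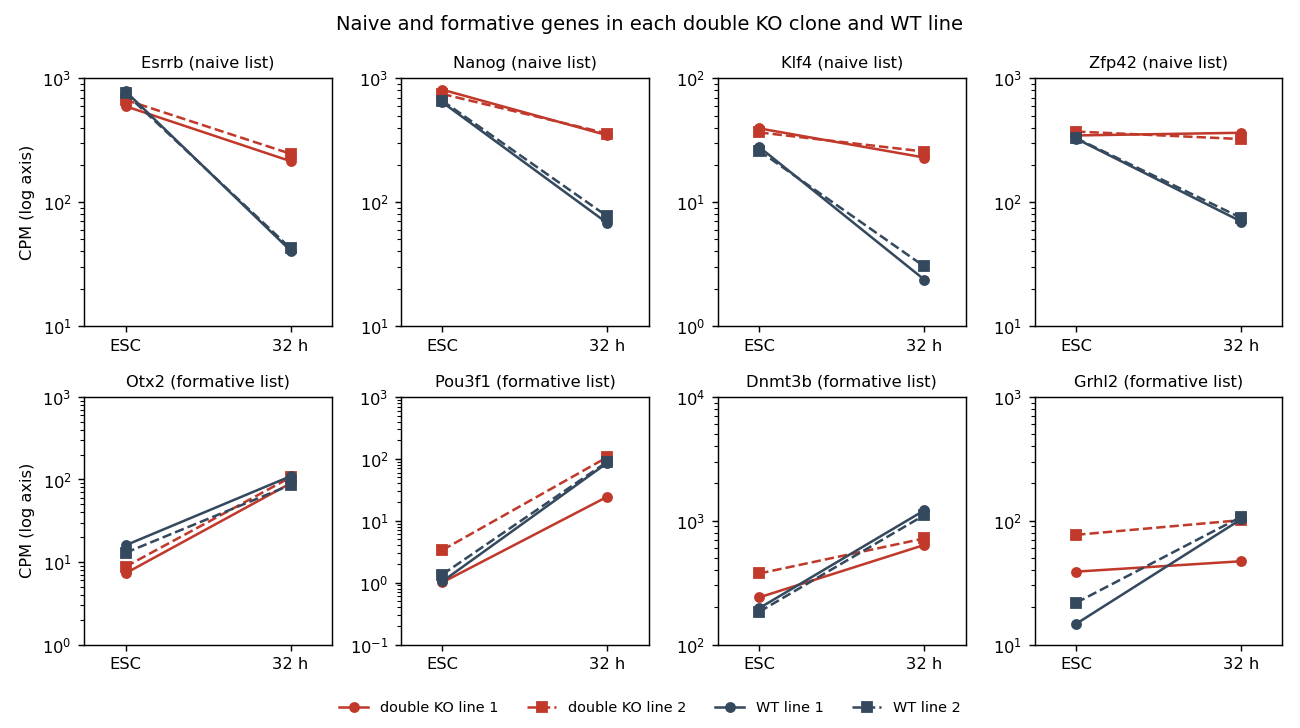
CPM on a log axis in each double knockout clone (red) and WT line (dark blue), ESC joined to 32 h within a line, with line 1 solid and line 2 dashed, for 4 naive genes (top) and 4 formative genes (bottom). Esrrb, Nanog, Klf4 and Zfp42 end higher in both double knockout clones than in both WT lines, while Otx2 ends at similar levels and Grhl2 starts higher in the double knockout.

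Genes of pluripotency that do not depend on the naive state behaved differently. Of 15 such genes 9 rose and 1 fell, with a median of 0.41 against 0.50 in WT; without clone 1, 4 rose. The RNA-binding protein gene Lin28a went from 134 and 157 CPM to 569 and 625 CPM (2.04, SE 0.11), Dppa4 from 61.8 and 83.2 CPM to 133 and 181 CPM (1.11) and the forkhead factor Foxd3 from 3.58 and 7.30 CPM to 10.1 and 24.7 CPM (1.64). In all 3 the 32 h libraries lay above the ESC libraries. Sox2 fell by 0.59 on the log2 scale (adjusted p 0.00098). Pou5f1 (Oct4), at 1080, 1214, 1102 and 1119 CPM in the 4 libraries, was not called (-0.04, adjusted p 0.75).

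Formative genes rose in numbers like those of WT. Of 21 formative genes 17 rose and 2 fell, the same counts as in WT but not all the same members. The median was 1.54, against 1.85 in WT, 1.97 in Ehmt1 KO and 2.45 in Zic2 KO. The difference of responses from WT was called higher for 2 and lower for 6, against 8.60% and 8.07% of all genes. Otx2, the homeobox factor that leads the transition, went from 7.29 and 8.76 CPM to 89.8 and 106 CPM (3.61, SE 0.12, adjusted p 4.8e-10). Its response exceeded that of WT by 0.85 (adjusted p 0.0034; 0.051 without the block), while the 32 h levels overlapped those of WT (109 and 85.8 CPM). The POU factor Pou3f1 went from 1.01 and 3.36 CPM to 24.5 and 107 CPM (4.87, SE 0.16), with the 32 h level of clone 1 below and that of clone 2 above both WT lines (86.5 and 90.1 CPM). Its response was smaller than that of WT by 1.33 (adjusted p 0.0042; 0.48 without the block).

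Dnmt3b, a de novo DNA methyltransferase, went from 240 and 375 CPM to 637 and 719 CPM (1.17, SE 0.11), below the 1213 and 1109 CPM of WT at 32 h, and its difference from WT was -1.44 (adjusted p 6.1e-05). The zinc finger factor Sall2 rose by 2.23, which was 1.12 less than in WT (difference -1.12, adjusted p 0.00019). Grhl2, the grainyhead factor that opens epithelial enhancers, was at 38.8 and 76.9 CPM already in ESCs and at 47.1 and 101 CPM at 32 h. The stages overlapped and it narrowly missed the threshold (0.34, adjusted p 0.054; 0.049, 0.033 and 0.043 with other size factors, no filter on low counts and a fit of the double knockout alone). WT went from 14.7 and 21.7 CPM to 103 and 108 CPM, and the difference of responses was -2.21 (adjusted p 8.0e-06). Grhl2 was high in Ehmt1 KO ESCs too, at 86.1 and 71.7 CPM. The difference of responses from Ehmt1 KO was not called in edgeR's test (-0.43, adjusted p 0.46). Of the other members, Foxp1 (2.32), Etv4 (2.03), Sox3 (1.67), Tcf15 (1.55), Lef1 (1.54) and Dnmt3a (1.50) rose. N-cadherin, Cdh2, fell by 1.06 from 28.0 and 33.4 CPM to 13.0 and 16.6 CPM. In WT it was at 20.3 and 23.99 CPM and then 27.2 and 27.1 CPM, and the difference was called at -1.36 (adjusted p 0.00019). Cdh2 also fell in Ehmt1 KO, by 1.05, and the difference from it was not called in edgeR's test (-0.0088, adjusted p 0.99). The other member that fell, the Ets factor Etv5 (-0.32, adjusted p 0.021), was not called without clone 1 (0.14), clone 2 (0.086) or the block (0.50).

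Among Fgf and Erk target genes, the pathway that the Mek inhibitor holds down in 2i, 8 of 17 rose and 1, Etv5, fell (median 0.57, against 0.95 in WT). Of the pathway's feedback inhibitors some rose: the phosphatase genes Dusp4, from 6.74 and 10.02 CPM to 63.7 and 74.6 CPM (3.06, SE 0.20), and Dusp6, from 9.90 and 28.6 CPM to 39.2 and 73.2 CPM (1.64, SE 0.15), and the Sprouty genes Spry4 (3.48) and Spry2 (1.50). Each of the 4 had both 32 h libraries above both ESC libraries. Others of the list were not called: Spry1 (0.28, adjusted p 0.12), Spred2 (0.07, adjusted p 0.71), Dusp5 (0.04, adjusted p 0.90) and Spred1 (0.04, adjusted p 0.87). The last pair rose in WT, and their differences from WT, -0.9997 for Dusp5 (adjusted p 0.042) and -0.91 for Spred1 (adjusted p 0.012), were lost without the block (0.10 and 0.14), without either double knockout clone and without WT line 1, and that of Dusp5 also without WT line 2. The response of Dusp6 was 1.32 below that of WT (difference -1.32, adjusted p 0.00073; 0.24 without the block). Of the Ets factors, Etv4 rose by 1.27 less than in WT (difference -1.27, adjusted p 0.0020; 0.10 without the block), and Etv1, which rose by 1.66 in WT, had a value of 0.23 (adjusted p 0.26; difference -1.43, adjusted p 0.00048).

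The immediate early factor Egr1 moved in opposite directions in the 2 genotypes. It was at 43.1 and 27.8 CPM in double knockout ESCs and at 109 and 67.9 CPM at 32 h (1.31, SE 0.13, adjusted p 6.5e-06), while WT fell from 91.5 and 77.5 CPM to 44.4 and 27.5 CPM. The difference of responses was 2.58 (adjusted p 4.5e-06) from WT and 3.26 (adjusted p 8.5e-07) from Zic2 KO. In Ehmt1 KO Egr1 rose as well, by 0.68, and the difference of 0.63 from it was not called (adjusted p 0.27).

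Of 16 Wnt target genes, whose pathway CHIR99021 keeps active in 2i, 9 fell and 2 rose (median -0.54, against -1.16 in WT). Sp5, a direct target of the pathway and a transcriptional repressor, was at 11.8 and 7.01 CPM in ESCs and at 0.135 and 0.219 CPM at 32 h (-5.70, SE 0.41, adjusted p 6.1e-07). Its difference from WT was 0.65 (adjusted p 0.67), or -0.0134 without clone 2. The homeobox genes Cdx1 (-5.23) and Cdx2 (-5.28), the T-box gene T (Brachyury, -2.76), the feedback inhibitor Axin2 (-2.13), the secreted Wnt deacylase gene Notum (-1.19), Ccnd1 (-0.55) and Tcf7 (-0.50) fell too, Cdx2 being a member of the trophoblast list. Notum differed from WT by 1.81 (adjusted p 4.7e-05), falling from 59.5 and 65.6 CPM to 26.0 and 29.0 CPM. Lef1 and the inhibitor Nkd2 (1.70) rose.

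The window upstream of Sp5 is shown because it was the 1 window, of the 10 found for Wnt targets, that held the letters CTTTGAT, the core bound by Tcf and Lef factors. Over all genes with a window, 3.72% of 27025 hold these letters on either strand in the 250 bases before the start. The Sp5 window, chr2:70474673-70474922 on the plus strand of GRCm38.p6 in the RefSeq annotation, carries them in capitals, beginning 104 bases before the start; a match is no evidence of binding.
Sp5: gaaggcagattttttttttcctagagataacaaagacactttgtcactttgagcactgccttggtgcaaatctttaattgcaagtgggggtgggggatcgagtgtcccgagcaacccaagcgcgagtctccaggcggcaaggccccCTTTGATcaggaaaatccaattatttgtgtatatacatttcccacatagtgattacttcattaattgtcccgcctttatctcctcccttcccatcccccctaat

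Several Nodal and Bmp target genes that fell in WT were not called lower in the double knockout. Of 9 Nodal targets 1 rose (Skil, a Smad co-repressor, 1.20) and 2 fell, the inhibitor Smad7 (-1.31) and Lefty2. Over all genes 13.7% rose and 13.8% fell. In WT 7 of the targets fell, against 22.9% of all genes. Lefty2, a secreted Nodal antagonist, went from 160 and 154 CPM to 68.1 and 63.9 CPM (-1.25, SE 0.27, adjusted p 0.010), beside 281 and 168 CPM to 12.2 and 14.8 CPM in WT. The call was lost without clone 1 (adjusted p 0.12), without clone 2 (0.11) and without the filter on low counts (0.087), whereas the difference from WT, 2.76 (adjusted p 0.0027), held in these. The difference was called higher for 6 of the 9, against 8.60% of all genes. Without clone 1, 1 of the 9 fell, and without clone 2, 2 rose. Of 11 Lif and Stat3 targets 1 rose and 2 fell, close to the 27.5% called over all genes. Klf4 and the receptor subunit gene Il6st (-1.13) fell and the kinase gene Pim3 rose (0.55, and 0.50 without clone 1). The Pim3 call was lost without clone 1 and without the block (adjusted p 0.14).

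Of 12 Bmp targets 6 rose and 3 fell, with a median of 0.49 against -0.93 in WT. The difference from WT was called higher for 7 and lower for 1, Id2, against 8.60% and 8.07% of all genes. Id3, an inhibitor of helix-loop-helix factors, went from 14.8 and 17.8 CPM to 32.4 and 25.2 CPM (0.82, SE 0.15, adjusted p 0.0014), while WT went from 25.8 and 23.3 CPM to 5.18 and 5.06 CPM. The double knockout stages did not overlap; without clone 1 the value was 0.47 (adjusted p 0.11). The difference was 3.08 from WT (adjusted p 6.8e-06), 1.91 from Ehmt1 KO (adjusted p 0.0050; not called without Ehmt1 KO line 2 or double knockout clone 1) and 1.63 from Zic2 KO (adjusted p 0.00036). Id1 rose by 1.65 (adjusted p 0.00055; 1.25 and 0.063 without clone 2, 0.080 without the block) at 0.779 to 7.48 CPM, with a difference from WT of 2.65 (adjusted p 0.00036; 0.085 without the block). Id2 rose by 1.89, and Id4 (-2.79) and Msx2 (-1.84) fell. The ligand gene Bmp4 was at 5.41 and 14.0 CPM and then 5.12 and 9.23 CPM, was not called (-0.37, adjusted p 0.25) and differed from WT by 2.44 (adjusted p 0.00025). Of the 12, 3 rose without clone 1, 2 without clone 2 and 3 without the block.

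**Figure D4:**
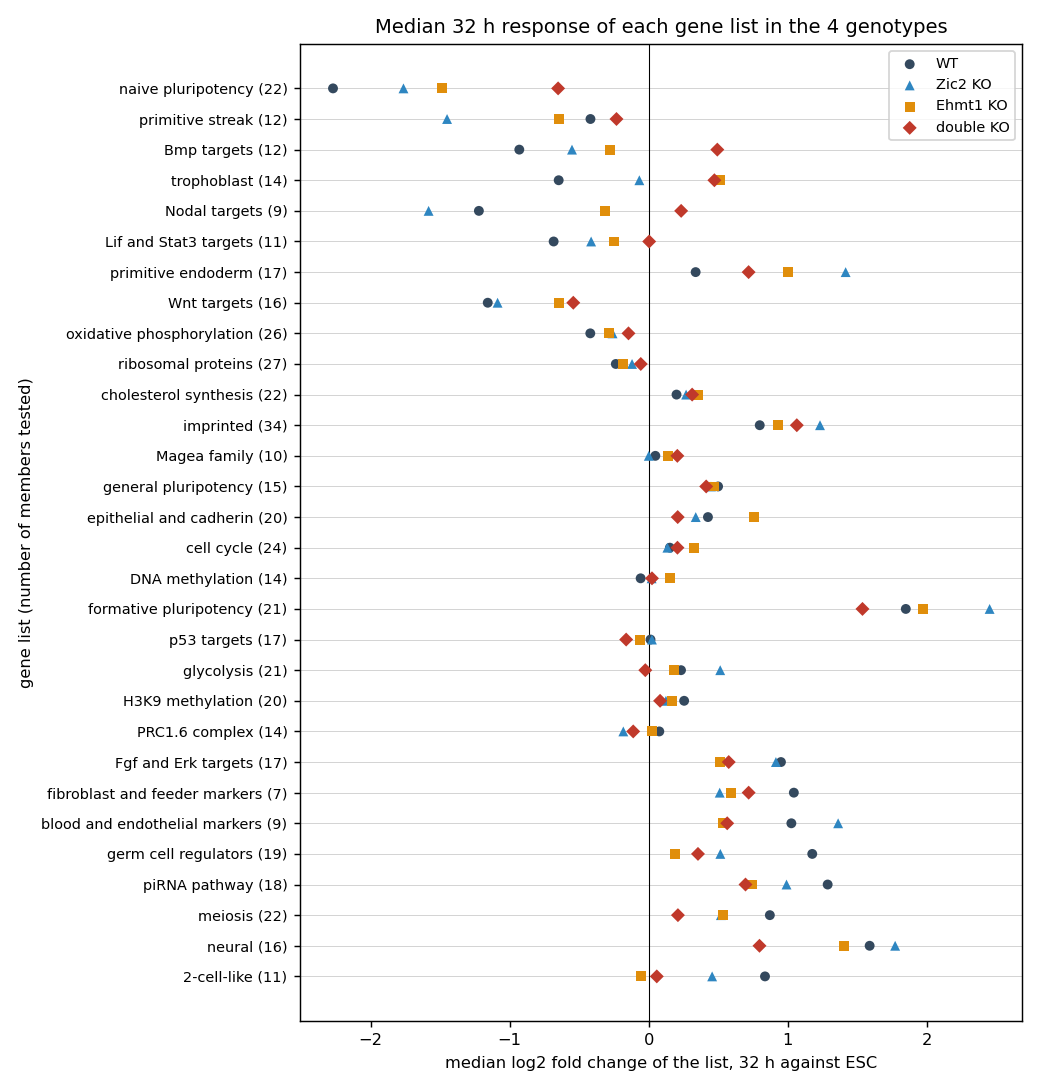
Median log2 fold change of 32 h against ESC over the tested members of each gene list (number in brackets), for the double knockout (red diamonds), Ehmt1 KO (orange squares), Zic2 KO (blue triangles) and WT (dark circles), in order of the median difference between double knockout and WT. The naive list stands at -0.65 in the double knockout against -2.27 in WT, and the Bmp target list at 0.49 against -0.93.

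Germ line genes that are kept silent in part by H3K9 methylation were examined by group. Of 18 genes of the piRNA pathway, which protects the germ line from transposons, 9 rose and 1, Asz1, fell (-0.65; -0.38 and adjusted p 0.40 without clone 1, 0.26 without the block and 0.17 with DESeq2). The median was 0.70, against 1.29 in WT, and 5 had a difference from WT called lower, against 8.07% of all genes. Mael, a nuage component, went from 2.52 and 6.86 CPM to 6.67 and 17.4 CPM (1.36, SE 0.15, adjusted p 1.8e-05), so that clone 2 in 2i and clone 1 at 32 h were close and the stages overlapped between clones but not within either. Without the block its adjusted p was 0.051. Its response was 0.80 smaller than in WT (difference -0.80, adjusted p 0.017), a call lost without double knockout clone 2 (0.10), without WT line 1 (0.074) and without the block (0.46). The Tudor protein gene Tdrkh (1.69), the Argonaute gene Piwil2 (0.82) and the helicase gene Ddx4 (Vasa, 0.74) rose; without clone 1 the values of Piwil2 and Ddx4 were 0.68 (adjusted p 0.064) and 0.66 (0.055). Of the list, 3 rose without clone 1 and 5 without the block.

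The window of Mael is shown because it held CACGTG, the E-box bound by the Max-containing complex PRC1.6 among others. Of the 16 piRNA pathway genes with a window 8 held these letters, among them 4 of the 7 that rose, against 6.86% of all 27025 genes with a window. The site, in capitals, begins 223 bases before the start in chr1:166238745-166238994, minus strand of GRCm38.p6 in RefSeq; both strands were searched, the 6 letters read the same on either, and a match is a description of the sequence alone.
Mael: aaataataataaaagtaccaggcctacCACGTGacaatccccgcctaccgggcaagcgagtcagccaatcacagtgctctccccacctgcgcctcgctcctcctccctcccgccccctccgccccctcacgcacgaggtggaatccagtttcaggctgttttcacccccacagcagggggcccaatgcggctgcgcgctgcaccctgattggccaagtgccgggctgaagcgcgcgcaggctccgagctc

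Of 22 meiosis genes 4 rose and 1 fell, against 13.7% and 13.8% of all genes. The median was 0.21 against 0.87 in WT, and 6 had a difference from WT called lower, against 8.07% of all genes. Meioc, needed for the meiotic prophase programme, went from 7.43 and 4.96 CPM to 13.1 and 12.4 CPM (1.06, SE 0.19), which was 1.80 less than in WT (difference -1.80, adjusted p 0.00043). Tex11 rose by 0.96, and the meiotic cohesin gene Rec8 fell from 33.5 and 13.3 CPM to 11.2 and 5.51 CPM (-1.44, SE 0.16). Of 19 germ cell regulators 6 rose and 6 fell; Zcwpw1, a reader of histone marks at recombination sites, rose by 1.20 and Nanos3, a germ cell survival factor, fell by 2.63. Of these regulators 3 rose and 1 fell without clone 1, and 2 rose without clone 2. In the Magea family none of 10 tested members was called, and in the 2-cell-like list none of 11 (1 rose without clone 2).

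Chromatin genes had mostly small fold changes. The 7 of 20 genes called in the H3K9 methylation list and the 4 of 14 in the PRC1.6 list are close to the 27.5% called over all genes. Of the 20 genes of H3K9 methylation 4 rose and 3 fell, among them the demethylase gene Kdm3b (-0.70, SE 0.10) and the heterochromatin protein gene Cbx1 (0.59; 0.33 and adjusted p 0.070 without clone 2); without clone 1, 1 rose and 1 fell. The methyltransferase gene Setdb1 (-0.41) and the corepressor gene Trim28 (0.35) were called, and had values of -0.18 (adjusted p 0.34) and 0.11 (adjusted p 0.59) without clone 1 and -0.66 and 0.57 without clone 2; without the block neither was called (0.087 and 0.055). Of 14 genes of DNA methylation 4 rose and 3 fell. Besides Dnmt3a and Dnmt3b, the cofactor gene Dnmt3l rose from 107 and 229 CPM to 550 and 517 CPM (1.76, SE 0.23; 1.14 without clone 1), as did the glycosylase gene Tdg (0.58), and Uhrf2 fell by 0.88. The dioxygenase gene Tet3 stayed between 25.9 and 28.9 CPM (0.10, adjusted p 0.73), where WT went from 4.33 and 7.61 CPM to 34.4 and 29.7 CPM (difference -2.35, adjusted p 0.00014). Of 14 PRC1.6 genes L3mbtl2 rose (0.45) and Rybp (-0.43), Hdac2 (-0.39) and Wdr5 (-0.38) fell. Without clone 1 these were 0.33, -0.27, -0.23 and -0.26, and none was called (adjusted p 0.13 to 0.22), nor was L3mbtl2 without the block (0.10).

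Markers of other cell types were read as well, both for lineage genes and for other cells in the cultures. The summed level of the fibroblast and feeder markers was 13.9 to 24.6 CPM over 14 genes, with Twist2 and S100a4 at 0 in all 4 libraries, that of the primitive streak list 16.6 to 32.7 CPM, and that of the trophoblast list 92.9 to 135 CPM. The sums were 684 to 788 CPM for primitive endoderm, 433 to 598 CPM for neural genes, 254 to 345 CPM for 2-cell-like genes (45.9 to 112 CPM without the translation factor gene Eif1a, at 208 to 233 CPM) and 292 to 460 CPM for blood and endothelial markers. Of 7 fibroblast and feeder markers tested 2 rose, Col1a2 at 0.550 to 3.83 CPM and Dcn at 0 in both ESC libraries and at 0.337 and 1.42 CPM at 32 h, and neither was called by DESeq2. Of 9 blood and endothelial markers 5 rose and 2 fell (median 0.56), and in WT the counts were 5 and 2; without clone 1, 2 rose and 0 fell, and without the block likewise. The factors Tal1 (3.39, at 0.0917 to 1.61 CPM) and Gata1 (1.23, at 2.34 to 6.0 CPM; adjusted p 0.13 without the block) rose. Pecam1, at 180 to 342 CPM most of that list's sum, fell by 0.59 on the log2 scale (-0.33 and adjusted p 0.13 without clone 1, 0.20 without the block). Their part in the results was not tested.

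Of 17 primitive endoderm genes 7 rose and 2 fell, where over all genes 13.7% rose and 13.8% fell. The endocytic adaptor Dab2 (1.87) and its partner receptor Cubn (2.40) rose. Of 14 trophoblast genes 7 rose and 3 fell, among the latter Tfap2c (-0.51; -0.44 and adjusted p 0.16 without clone 1, 0.20 without the block). The keratin genes Krt18, from 2.93 and 9.05 CPM to 9.20 and 21.4 CPM (1.41, SE 0.17), and Krt8 (1.27, SE 0.19) rose within each clone while the highest ESC value of clone 2 was close to the 32 h value of clone 1, and without the block neither was called (adjusted p 0.071 and 0.073). Of 16 neural genes 8 rose and 4 fell. The Notch ligand gene Dll1 went from 2.71 and 7.01 CPM to 58.7 and 109 CPM (4.15, SE 0.18, adjusted p 4.1e-09) and the repressor gene Hes6 rose by 1.88, while the intermediate filament gene Nes (-1.19) and R-cadherin, Cdh4 (-1.61), fell. Cdh4 rose in WT (difference -2.78, adjusted p 4.8e-05), and the response of Nes lay below that of WT (difference -1.09, adjusted p 0.0015). Without clone 1, 4 endoderm, 4 trophoblast and 4 neural genes rose, and without clone 2, 4 endoderm genes.

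Of 20 epithelial and cadherin genes 8 rose and 2 fell (4 rose without clone 2). Podocalyxin, Podxl, rose from 29.8 and 45.0 CPM to 108 and 145 CPM (1.77, SE 0.10), the adhesion gene Epcam from 24.4 and 33.8 CPM to 69.1 and 157 CPM (1.87) and the repressor of E-cadherin Zeb2 by 2.83. Fibronectin, Fn1, fell from 2073 and 1412 CPM to 781 and 790 CPM (-1.12, SE 0.14). In each of these the stages were separate. Of 17 p53 targets 2 rose and 4 fell, against 13.7% and 13.8% of all genes, and fewer fell when either clone was left out. The cell cycle inhibitor gene Cdkn1a fell from 286 and 255 CPM to 106 and 91.7 CPM (-1.45, SE 0.13). The same gene belongs to the cell cycle list, in which 10 of 24 rose, including Plk1 (0.69) and Ccne1 (0.62), and 4 fell, including Cdk6 (-1.29); without clone 1, 5 rose.

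Most of the tested imprinted and cholesterol synthesis genes rose. Of 34 imprinted genes 21 rose and 3 fell (median 1.06, against 0.80 in WT), 13 rising without clone 1 and 13 without the block. The noncoding RNA H19 went from 2.29 and 21.8 CPM to 32.1 and 194 CPM (3.38, SE 0.19), the growth inhibitor gene Cdkn1c from 3.03 and 7.10 CPM to 15.1 and 42.8 CPM (2.47, SE 0.20), and Snrpn from 130 and 138 CPM to 357 and 354 CPM (1.41, SE 0.09). The clones differed in H19 by a wide margin at each stage, and neither H19 nor Cdkn1c was called without the block (adjusted p 0.099 and 0.084). Dlk1 (2.73) and Mest (1.05) rose, and Igf2r (-0.67) and Usp29 (-1.55; -0.74 and adjusted p 0.11 without clone 1, 0.066 without the filter on low counts) fell. The zinc finger gene Plagl1 fell from 184 and 147 CPM to 17.1 and 18.5 CPM (-3.21, SE 0.29). That fall was smaller than in WT by 2.33 (adjusted p 0.0095), a call lost without double knockout clone 1 (0.054), without clone 2 (0.063) and without the filter on low counts (0.073).

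Of 22 cholesterol synthesis genes 15 rose and 1 fell, with a median of 0.31; 16 rose in Ehmt1 KO and 7 in WT. The difference from WT was called higher for 2 and lower for 1 of the 22, close to the 8.60% and 8.07% over all genes. For each list of this paragraph the shares over all genes in the double knockout were 13.7% higher and 13.8% lower. Hmgcs1, an early enzyme of the pathway, went from 399 and 476 CPM to 622 and 731 CPM (0.63, SE 0.10) and Fdps from 159 and 179 CPM to 245 and 255 CPM (0.56, SE 0.08), without overlap of the stages. The sterol isomerase gene Ebp fell by 0.94 (adjusted p 0.00012; 0.064 without the block). The changes were small, and 3 rose without clone 1 and 4 without the block. Of 21 glycolysis genes 7 rose and 5 fell: the glucose transporter gene Slc2a1 went from 195 and 360 CPM to 620 and 987 CPM (1.56, SE 0.09), Pdk1 rose by 1.04, 0.99 more than in WT (adjusted p 0.00017), and Hk1 (-0.94) and Pfkm (-0.73) fell; without clone 1, 2 rose. Of 26 oxidative phosphorylation genes 4 fell, against 13.8% of all genes, among them Atp5c1 (-0.38, adjusted p 0.0049). In WT 20 fell, and the difference from WT was called higher for 4, against 8.60% of all genes. Fewer fell when either double knockout clone was left out. Of 27 ribosomal protein genes 1 fell (none without clone 1 and 2 without clone 2).

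Beyond the lists, genes whose response differed most from WT included several that WT shuts down. Spic, an Ets-family factor, went from 90.0 and 50.0 CPM to 21.6 and 19.4 CPM in the double knockout and from 21.1 and 15.3 CPM to 0.439 and 0.166 CPM in WT, a difference of 4.18 (adjusted p 0.00018). At both stages the double knockout lay above WT, and so did Ehmt1 KO, at 63.9 and 59.0 CPM and then 17.5 and 8.41 CPM. Against Ehmt1 KO the Spic difference was not called (0.60, adjusted p 0.55), nor was that of Rasgef1a (1.07, adjusted p 0.21). Rasgef1a, an exchange factor for Ras-family proteins, differed from WT by 3.96 (adjusted p 2.8e-05) and the receptor gene Adgrg5 by 3.75 (adjusted p 0.00032). The amidase gene Naaa (3.92), the collagen gene Col13a1 (3.74) and the methyltransferase gene Bhmt2 (3.59) differed in the same direction, as did Dmgdh (3.82; 8.33 without WT line 1).

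Other genes rose in WT and had a lower response in the double knockout. The calcium channel gene Itpr2 was at 7.11 and 6.42 CPM in double knockout ESCs and at 4.72 and 5.77 CPM at 32 h, and in WT at 0.428 and 0.0501 CPM and then 7.06 and 9.83 CPM (difference -5.44, adjusted p 0.00060). The transporter gene Abcc12 fell by 2.35 from 8.80 and 7.06 CPM where WT rose by 2.88 from 0.475 and 0.200 CPM (difference -5.23, adjusted p 2.7e-05). Both genes were thus higher in double knockout than in WT ESCs. Ehmt1 KO ESCs were above WT too, at 4.77 and 2.80 CPM for Itpr2 and 8.12 and 15.5 CPM for Abcc12. Neither difference of responses from Ehmt1 KO was called (-1.91, adjusted p 0.27, and -1.37, adjusted p 0.23). The regulatory factor gene Rfx4 (-4.68) and the neuron-derived factor gene Ndnf (-4.76) differed from WT in the same direction, Ndnf also rising by 1.61 in the double knockout. In all, 1347 genes had a higher and 1264 a lower difference from WT; the sum of 2611 fell to 829 without the block, 1476 without double knockout clone 1 and 1206 without WT line 1.

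Few genes separated the double knockout response from that of Ehmt1 KO. The difference was called for 17 genes, 11 higher and 6 lower, or 0.109% of those tested (0.0702% and 0.0383%), and this count was not stable: it was 0 without Ehmt1 KO line 2 (776 genes at an unadjusted p under 0.05), 1 without double knockout clone 1, 1 without the block, 8 in a fit of these groups alone, 50 without double knockout clone 2, 99 without Ehmt1 KO line 1, 104 without the filter on low counts and 78 with DESeq2. Id3, above, was the 1 gene still called without the block, and Sall2 differed by -1.36 (adjusted p 0.0048). Esrrb differed by 1.09 (adjusted p 0.028), with Ehmt1 KO at 122 and 112 CPM at 32 h, and Klf4 by 1.19 (adjusted p 0.028), with Ehmt1 KO going from 58.2 and 70.4 CPM to 16.7 and 19.1 CPM. For both genes the double knockout 32 h levels lay above those of Ehmt1 KO. Tfap2c (1.38), Ptgs1 (2.94), Zfpm2 (2.08) and Slc30a2 (1.45) differed in the same direction and Loxl2 (-1.77), Plcg2 (-1.21) and Pim2 (-1.11) in the other. Without Ehmt1 KO line 2 the adjusted p of these genes, with Id3, Sall2, Esrrb and Klf4, ranged from 0.12 to 0.32. A gene that was not called is not thereby shown to respond alike in the 2 genotypes.

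The difference from Zic2 KO was called for 1642 genes, 902 higher and 740 lower (10.5%, or 5.76% and 4.72%); it was 475 without the block, 644 without Zic2 KO line 1 and 595 without Zic2 KO line 2. Naive genes were again among them: Esrrb differed by 2.44, Klf4 by 2.22 and Nanog by 2.02, with Zic2 KO at 45.0 and 56.8, 1.90 and 2.62, and 81.4 and 82.8 CPM at 32 h. All double knockout 32 h levels of these 3 genes lay above the Zic2 KO levels. Grhl2 differed by -3.57 (adjusted p 8.1e-07), rising in Zic2 KO from 4.76 and 4.23 CPM to 67.8 and 67.0 CPM. The hyaluronidase gene Cemip (5.40) and Rasgef1a (4.15) stood higher. The cytokine gene Tnfsf11 (RANKL) rose by 3.41 in the double knockout, from 1.19 and 1.07 CPM to 12.6 and 11.5 CPM. In Zic2 KO it went from 0.0523 and 0.0465 CPM to 22.8 and 19.9 CPM. The fitted difference of -5.19 (adjusted p 0.00011) therefore rests on Zic2 KO ESC levels near 0. Slc5a4b had no read in either Zic2 KO ESC library, so the fitted difference of -7.64 (adjusted p 0.00078; 0.069 without the block) depends on how 0 is treated. The Sall2 difference of -0.73 was lost without Zic2 KO line 1 (adjusted p 0.053), line 2 (0.068) and the block (0.22).

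The 2 clones gave responses with a Pearson r of 0.75 across genes, against 0.83 between the lines of Ehmt1 KO, 0.87 in WT and 0.90 in Zic2 KO. The median absolute gap between the lines' responses had another order: 0.26 in the double knockout, 0.28 in WT, 0.19 in Ehmt1 KO and 0.15 in Zic2 KO. Some genes differed by their starting level: Myrf, a membrane-bound transcription factor, rose by 4.68 from 4.13 to 108 CPM in clone 1 and by 3.08 from 19.7 to 167 CPM in clone 2. The ciliary neurotrophic factor receptor gene Cntfr rose by 3.81 in clone 1 and 1.89 in clone 2, Dbn1 by 3.47 and 1.86, and Sned1 by 3.15 and 1.51. In each of the 4 the ESC level of clone 1 was the lower. Stra8, the retinoic acid-induced gatekeeper of meiosis, was at 27.9 CPM in clone 1 ESCs and 1.80 CPM in clone 2 ESCs, and its own response was 0.45 in clone 1 and 2.19 in clone 2. Jakmip1 changed by -3.14 and -1.45 and Cdx2 by -6.18 and -4.17. Gapdh was at 48.6 CPM in clone 1 ESCs and at 2.34, 3.10 and 2.96 CPM in the other double knockout libraries, and its count is uncertain because near-identical copies in the genome can share its reads.

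**Figure D5:**
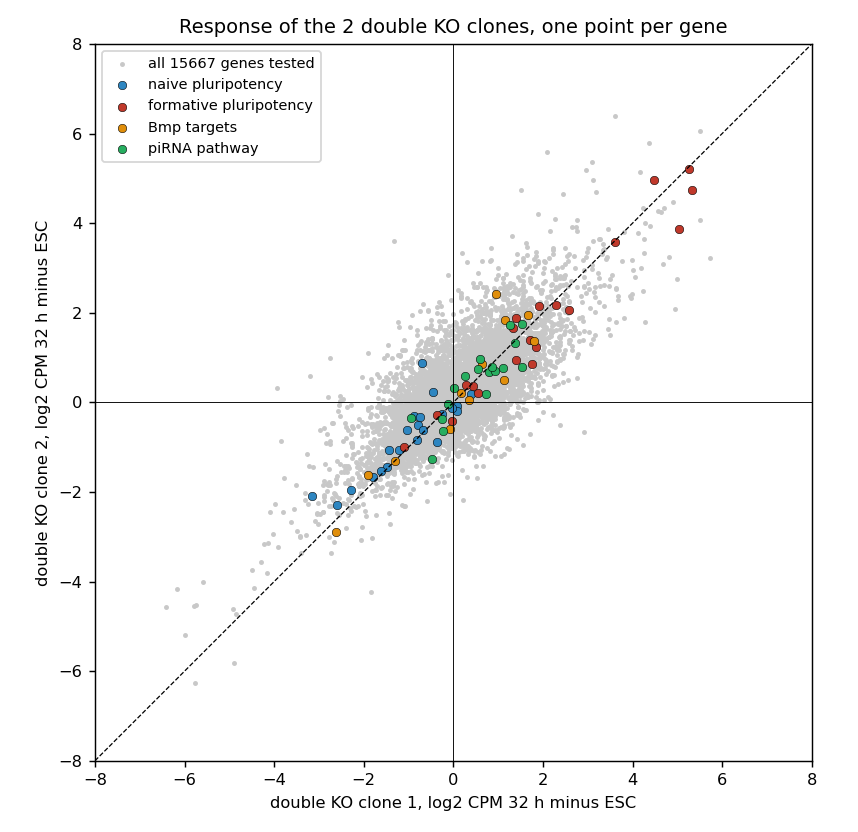
Change in log2 CPM from ESC to 32 h in double knockout clone 1 (x axis) and clone 2 (y axis), 1 point per gene, with 4 gene lists coloured as in the plot against WT and the dashed line marking equal change. Points follow the dashed line with a Pearson r of 0.75, and most coloured genes lie in the same quadrant for both clones.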

How the data were processed

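The authors deposited a table of whole-number read counts per gene; GRCm38 (mm10) and edgeR are named in the submitters' processing notes, and the sources used here name no aligner, counting tool or strand setting. The table holds 24116 gene identifiers, of which 24061 have a symbol in the RefSeq table. For the present comparison the 16 polyadenylated libraries of WT, Ehmt1 KO, Zic2 KO and double knockout cells were fitted together in R 4.3.3 with edgeR 4.0.16 (limma 3.58.1; TMM library factors, filterByExpr with a minimum count of 10 and total of 15, robust quasi-likelihood test, Benjamini-Hochberg adjustment over 15667 genes). The design had a block for each of the 8 lines and a stage effect per genotype, leaving 4 residual degrees of freedom. The labels give the pairing, since the same knockout clone was sampled at both stages; deviations of the stages from their group means correlated at 0.53 in the double knockout, 0.46 in Ehmt1 KO, 0.18 in Zic2 KO and 0.05 in WT. Alternatives were no block, DESeq2 1.42.0, its size factors in edgeR, no filter, a fit of the compared groups alone, and each line left out.

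Members and the 30 gene lists (525 symbols, 9 not in the table) were chosen with earlier results of these data known, so list counts are descriptions. Named genes were the targets, up to 12 per direction with the largest fold change (at least 5 CPM, no overlap of the stages), up to 6 called members per list, any member of the pluripotency, signalling, germ line and chromatin lists as a value, the largest differences of response, and up to 4 clone gaps per direction of at least 10 CPM. Predicted genes and multi-copy families were passed over, and 1 gene that the rule names is not reported here. On simulated counts for the double knockout response over 15667 genes, 37.5% of genes changed by 0.5 on the log2 scale, 86.2% of those changed by 1 and 100% of those changed by 2 were called, and 16 of 155 calls were unchanged genes. Only 80, 80 and 40 genes were changed at these sizes, against 4310 called in the data. The adjustment is stricter where fewer genes change, so these shares need not hold for the data. Counting intervals cover counting error only. Libraries at 16 h, of Zfp281 KO cells and of other kits were not used here.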

Additional observations from a re-analysis of the deposited data

Results flagged for a closer look

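The response of the double knockout differed from that of another genotype, by edgeR's test of the difference itself, for 2611 genes against WT, 17 against Ehmt1 KO and 1642 against Zic2 KO. Differences below are double knockout minus the other genotype, on the log2 scale, each with an adjusted p under the threshold.

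Against WT, naive genes stood higher: Esrrb by 2.76, Klf4 by 2.67, Prdm14 by 2.57, Tbx3 by 2.45, Zfp42 by 2.12, Nr0b1 by 2.10, Nanog by 2.03 and Tfcp2l1 by 1.72, while Gbx2 was at -1.83. Of the formative genes, Otx2 was higher by 0.85, and the values were -2.21 for Grhl2, -1.44 for Dnmt3b, -1.36 for Cdh2, -1.33 for Pou3f1, -1.27 for Etv4 and -1.12 for Sall2. Signalling genes were higher in the case of Id3 (3.08), Lefty2 (2.76), Id1 (2.65), Egr1 (2.58), Bmp4 (2.44) and Notum (1.81) and lower for Etv1 (-1.43), Dusp6 (-1.32), Dusp5 (-0.9997) and Spred1 (-0.91). In the germ line and chromatin lists, the differences were -2.35 for Tet3, -1.80 for Meioc, -0.80 for Mael and -0.59 for Ehmt1 itself. Among other named genes Spic (4.18), Rasgef1a (3.96), Naaa (3.92), Dmgdh (3.82), Adgrg5 (3.75), Col13a1 (3.74), Bhmt2 (3.59), Otop1 (2.91), Plagl1 (2.33) and Pdk1 (0.99) were higher. Itpr2 (-5.44), Abcc12 (-5.23), Ndnf (-4.76), Rfx4 (-4.68), Nkx1-2 (-3.85), Cdh4 (-2.78) and Nes (-1.09) were lower.

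Against Ehmt1 KO, Ptgs1 (2.94), Zfpm2 (2.08), Id3 (1.91), Slc30a2 (1.45), Tfap2c (1.38), Klf4 (1.19) and Esrrb (1.09) were higher, and Loxl2 (-1.77), Sall2 (-1.36), Plcg2 (-1.21) and Pim2 (-1.11) were lower. None of these 11 was called without Ehmt1 KO line 2, where 0 genes were called in all by edgeR and 776 had an unadjusted p under 0.05. Against Zic2 KO, Cemip (5.40), Rasgef1a (4.15), Egr1 (3.26), Esrrb (2.44), Klf4 (2.22), Nanog (2.02) and Id3 (1.63) were higher, and Slc5a4b (-7.64), Tnfsf11 (-5.19), Grhl2 (-3.57) and Sall2 (-0.73) were lower.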

How the results depend on the processing

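Without the replicate block, that is ignoring the pairing by line, 2251 genes were called in the double knockout response, 829 in its difference from WT, 1 in that from Ehmt1 KO and 475 in that from Zic2 KO, against 4310, 2611, 17 and 1642 with it. Leaving out 1 line gave 2070 to 3265 calls for the response, 1206 to 3262 for the difference from WT, 0 to 99 from Ehmt1 KO and 595 to 1237 from Zic2 KO. The low ends came without double knockout clone 1, WT line 1, Ehmt1 KO line 2 and Zic2 KO line 2. The difference from Ehmt1 KO was also 78 with DESeq2, 104 without the low-count filter and 8 in a fit of those groups alone. The other counts stayed within 1.5 times under DESeq2, its size factors, no filter and the compared groups alone. Of the 4310 genes, 2249 were also called without the block, 1928 without clone 1, 2752 without clone 2 and 3086 with DESeq2. The sign turned for 5 values, none of them called: Zfp42 was at -0.23 without clone 1 and 0.0812 without clone 2, Pou5f1 at -0.15 and 0.0385, Dusp5 at 0.19 and -0.12, Spred1 at -0.13 and 0.19, and the Sp5 difference from WT at 1.38 and -0.0134. The causes were not tested.

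On simulated counts, in which far fewer genes changed than were called in the data, changes near 0.5 on the log2 scale were mostly missed. With 2 clones and 4 residual degrees of freedom, an uncalled gene is not shown to be stable. Levels of 3 reads or fewer give fitted values that depend on the prior count, as for Csn3 and Dnase2b in the double knockout and Slc5a4b in Zic2 KO. The same holds for Gbp2 and Insm1, with 5 and 7 reads in the double knockout ESC libraries together and no read in 1 library each.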
